A study of Mus musculus with 3 samples.

Results

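Broad H3K4me3 domains are stretches of chromatin in which this promoter mark runs on for several kilobases well past the width of a usual promoter peak. They were defined here from the peak lists of wild-type (WT) and Huntington's disease model (HD) hippocampus. WT and HD peaks that overlapped by at least 1 bp were joined into regions, and a region was kept when both libraries had a peak in it and the mean of their covered lengths was at least 5000 bp. The covered length is the summed width of a library's peaks in the region. Of 17367 regions with peaks of both libraries, 676 met this rule. They held 725 of the 18515 WT peaks and 865 of the 19631 HD peaks, and 9.57% of the WT and 9.47% of the HD peak length. The covered lengths of both libraries chose the domains, so widths and their HD over WT ratios are given as a description, with no test.

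H3K4me3 marks nucleosomes at the starts of active genes, and at poised genes it can share the promoter with the silencing mark H3K27me3. It is written by the SET1 and MLL enzyme complexes, which bind unmethylated CpG-rich DNA. Wide H3K4me3 domains have been described in many cell types over genes that define the identity of the cell, and in brain over neuronal regulators.

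The mark was measured by chromatin immunoprecipitation and sequencing in the hippocampus of adult male C57/DBA F1 hybrid mice. The HD library came from N171-82Q mice, which carry a transgene for an N-terminal fragment of mutant huntingtin driven by the mouse prion protein promoter, and the WT library from their littermates. Each was made from the pooled hippocampi of 3 mice, so cell types are mixed and fewer cells with a domain cannot be told apart from a shorter domain per cell. Each genotype had a single library, so a difference cannot be compared with replicate error, and p-values were not computed. The intervals below are 95% intervals that cover counting over regions only. Per the labels, an earlier deposit holds the same WT reads, and nothing of the kind is said for HD, so genotype and any difference between sequencing runs cannot be told apart. The deposited lists hold no read counts, and the depth of the libraries is unknown. Domains are named by their position in the mouse build mm9. Which genes lie in them, and whether marker genes of hippocampal cell types do, was not analysed here, because the gene tables used cover another build.

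Most domains lay close to the minimum, and a few were far wider. The mean covered length had a median of 5807 bp, with quartiles of 5337 and 6637 bp. Between 5 and 6 kb lay 387 domains, between 6 and 8 kb 220, between 8 and 10 kb 47, and 22 covered 10 kb or more. The 3 domains just above the minimum were chr6:125045384-125050540 with a mean of 5002 bp (WT 5157 bp, HD 4846 bp), chr18:35018219-35023398 with 5002 bp and chr5:124800584-124806087 with 5004 bp. The 3 regions just below it were chr7:28114225-28119439 with 4998 bp, chr2:121119528-121124637 with 4998 bp and chr2:152220055-152225511 with 4997 bp. Nothing in these values sets the 2 sides of the limit apart. Both libraries reached 5000 bp by themselves in 546 domains, WT alone in 100 and HD alone in 30. The 2 libraries largely ranked the same regions at the top: 84 of the 100 widest regions by WT covered length were among the 100 widest by HD covered length.

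The widest domain lay at chr13:83852345-83876218. WT covered 23847 bp of it with 1 unbroken peak, and HD covered 21899 bp with 4 peaks of 4295, 11356, 5174 and 1074 bp. The breaks between the HD peaks were 339, 36 and 1002 bp long, and the last and smallest piece had a score of 73.6 against 3100 for the piece before it. This domain did not end the marked stretch: a second domain, chr13:83876335-83881863, began after only 116 bp and covered 5529 bp in WT and 4500 bp in HD. The pair together covered 29376 bp in WT and 26399 bp in HD.

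Division of a WT peak into HD pieces recurred among the widest domains. At chr12:50474576-50489818, 4 HD peaks lay under 1 WT peak of 15243 bp; the longest, of 10735 bp, held most of the length and the other 3 were 1086 to 1222 bp wide. At chr12:30210389-30224237, a WT peak of 13844 bp faced 3 HD peaks of 3563, 1544 and 7746 bp. At chr1:42746712-42761932 a WT peak of 15221 bp, and at chr2:44959136-44973853 a WT peak of 14718 bp, each lay over 2 HD peaks, which covered 13611 and 13068 bp. At chr11:120089792-120103424 the lengths were 13633 bp in WT and 12658 bp in 2 HD peaks, and at chr11:98601207-98613434 they were 12171 and 11727 bp. Breaks also occurred in WT. At chr5:143571777-143585791 WT had 2 peaks covering 13746 bp where HD had 1 of 13520 bp, and at chr15:85499110-85516810 both libraries had 2 peaks, over 17072 bp in WT and 17626 bp in HD. The other 3 of the 12 widest domains were 1 peak in each library: chr4:82142377-82155417 with 13041 and 12246 bp, chr13:78331610-78344045 with 12269 and 12400 bp, and chr5:123584203-123595676 with 11237 and 11452 bp. HD thus covered less in 9 of these 12 domains and more in 3, with log2 ratios of HD over WT from -0.17 to 0.05.

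**Figure D1:**
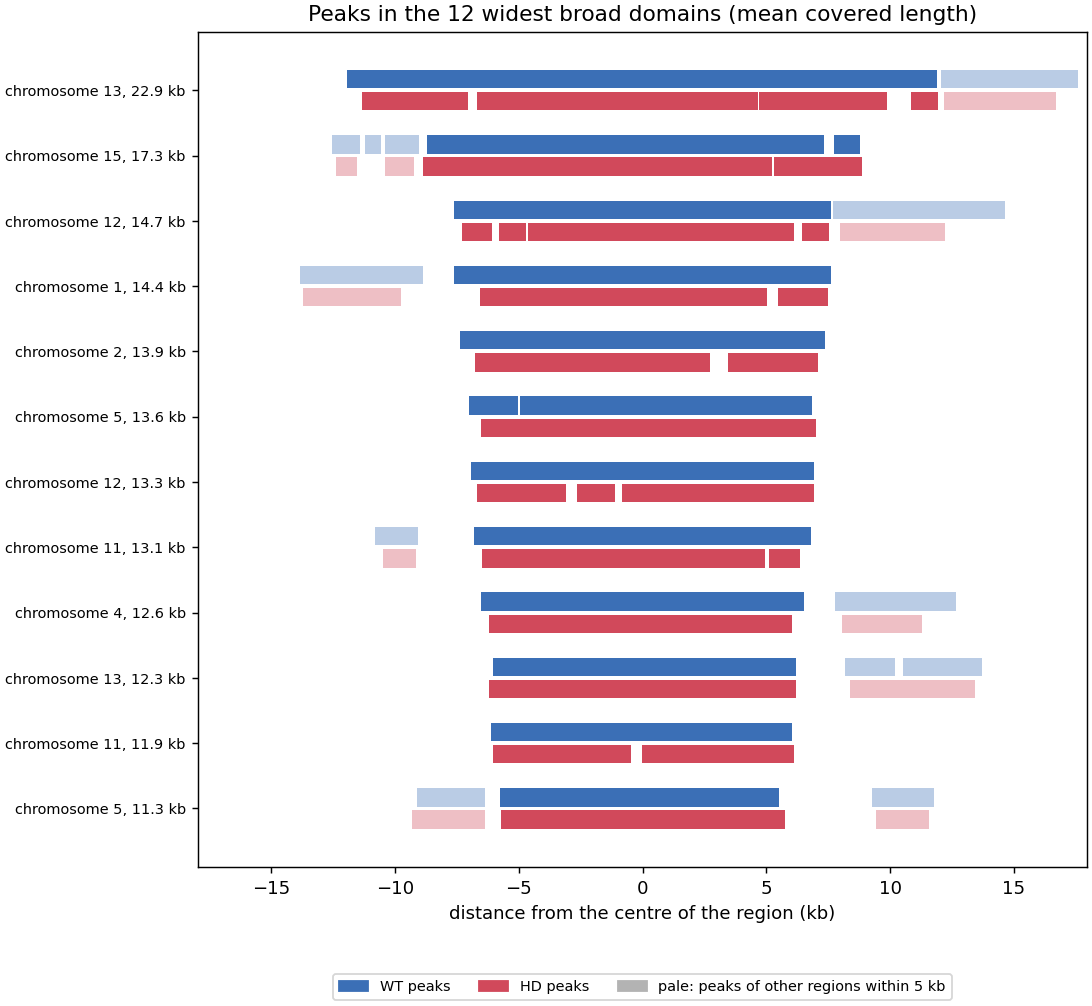
Peaks of the 12 widest broad domains, drawn to scale by distance from the centre of each region in kb, with WT peaks in blue above HD peaks in red and peaks of neighbouring regions within 5 kb in pale colours. In 7 of the 12 domains the HD peaks outnumber the WT peaks, and the breaks are short beside the domain.

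Over all 676 domains the HD peaks covered slightly less. The median covered length was 6026 bp in WT (quartiles 5475 and 6907 bp) and 5681 bp in HD (5193 and 6546 bp). The log2 of HD over WT covered length had a median of -0.068 (interval -0.078 to -0.058), a change of -4.58%. In the 16691 narrower regions with peaks of both libraries the median was -0.092 (-0.095 to -0.088), a change of -6.16%. HD covered less in 497 domains, 73.5% (70.0 to 76.8%), against 69.0% of all regions with both libraries. In bp the difference was larger in the domains, with a median of 299 bp less in HD (241 to 326 bp) against 139 bp in narrower regions. Summed, the domains covered 4.38 Mb in WT and 4.14 Mb in HD, a net 234.6 kb or 5.36% less. The ratio was nearly the same in each width class: its median was -0.068 at 5 to 6 kb, -0.069 at 6 to 8 kb, -0.066 at 8 to 10 kb and -0.060 in the 22 domains of 10 kb or more, where the interval of -0.12 to 0.01 held 0.

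The choice of library that sets the width moved this value. Among the 777 regions with at least 5000 bp in WT the median was -0.094, and among the 620 with at least 5000 bp in HD it was -0.039. Both kept the sign, and each choice favours regions that happen to be longer in the library used. The difference from the narrower regions, -0.068 against -0.092, was smaller than the distance between these choices.

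**Figure D2:**
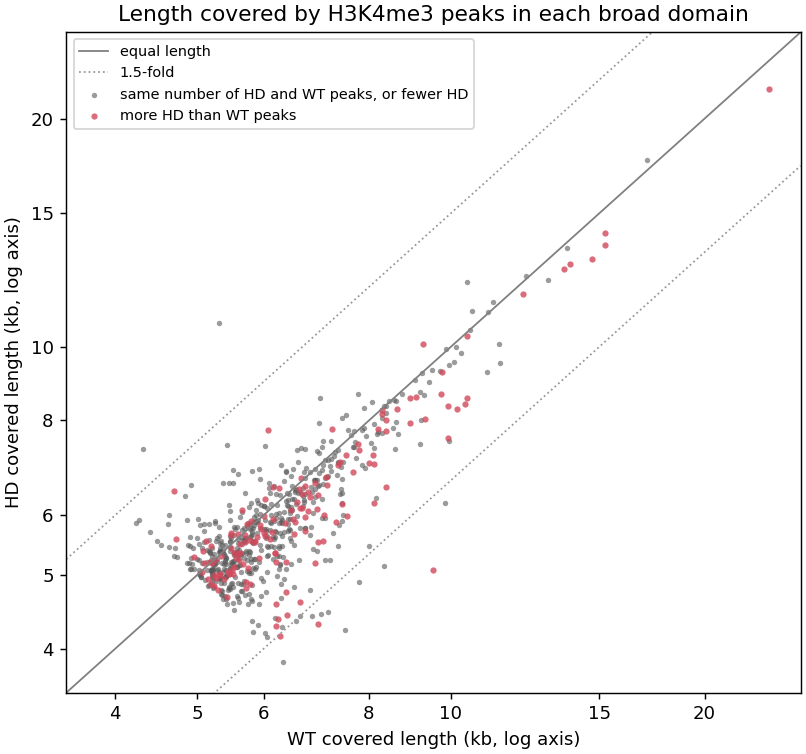
WT covered length (kb, log axis) against HD covered length (kb, log axis) of the 676 broad domains, with the line of equal length solid, 1.5-fold differences dotted, and domains with more HD than WT peaks in red. Most points lie just under the solid line, and 14 of the 676 lie outside the dotted lines.

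Relative to their length, single domains agreed between the libraries more closely than narrower regions did. The SD of the log2 ratio was 0.19 over the domains and 0.24 over the narrower regions. HD was within 10% of WT in 444 domains, 65.7%, against 50.4% of all regions with both libraries. Of the length covered in either library, a median of 91.7% was covered in both (quartiles 85.3 and 94.8%, lowest 49.0%), against 86.7% in narrower regions. In bp the HD edges of the domains lay further inward, by a median of 94 bp against 62 bp in narrower regions. Their shifts also spread more, with quartiles of -65 and 273 bp against -53 and 194 bp. A fixed distance is a smaller part of a wide region, so the closer agreement holds relative to length and not in bp.

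**Figure D3:**
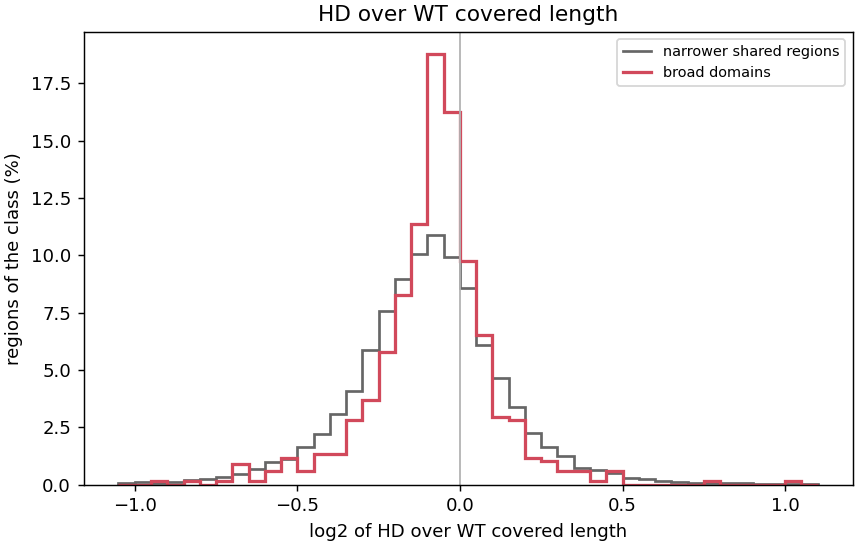
Share of regions (%) by log2 of HD over WT covered length, in steps of 0.05, for broad domains (red) and narrower shared regions (grey); 50 narrower regions lie outside the plotted range. Both distributions peak just below 0, and that of the broad domains is narrower.

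Large differences were few. HD covered over 1.5-fold less in 12 domains, 1.78% (0.92 to 3.08%), and over 1.5-fold more in 2, 0.296% (0.036 to 1.06%). Over all regions with both libraries these shares were 2.79% and 0.749%, both higher than in the domains. This order turned with the library that set the width. With WT alone 30 of 777 domains were over 1.5-fold shorter, 3.86% against 2.79%, and with HD alone 7 of 620 were over 1.5-fold longer, 1.13% against 0.749%. It also turned for both counts when both lists were limited to scores of at least 100 and when peaks of a library within 1 kb were merged.

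The lowest ratio was that of chr3:136331596-136341133. WT had 1 peak of 9538 bp there, and HD had a peak of 4455 bp, followed after 16 bp by one of 620 bp with a score of 65.5. On the left HD lay 166 bp inward and on the right 4281 bp. A WT peak of 1253 bp lay 2818 bp beyond the domain with no HD peak over it, and with it the log2 ratio went from -0.91 to -1.09, while the other 7 of the 8 lowest ratios had no further peak within 5 kb. Its score of 58.4 was near the lowest of the list. At chr7:16714024-16721510 WT covered 7487 bp and HD 4237 bp, with the right edge 3069 bp inward. At chr5:34525685-34532016 the lengths were 6332 and 3840 bp, with the left edge 2224 bp inward, and at chr5:132008341-132015496 they were 7156 and 4472 bp, with the left edge 2440 bp inward. At chr2:136537291-136545172 WT covered 7780 bp and HD 4904 bp, and at chr11:56824030-56833878 they covered 9849 and 6223 bp. In these 6 domains most of the difference lay at 1 end.

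In the remaining 2 of the 8 lowest ratios a break of over 1 kb in HD took part in the difference. At chr2:117162476-117169439 a WT peak of 6964 bp faced HD peaks of 1338 and 2979 bp with 1726 bp between them, and the left edge lay 887 bp inward. At chrX:63901393-63909905 WT covered 8344 bp and HD covered 5145 bp in 2 peaks that lay 1625 bp apart. The 2 WT peaks there were 169 bp apart, and the left HD edge lay 273 bp and the right HD edge 1470 bp inward, so the outer edges held more of the difference than the gap did. The outer spans of these 2 domains, gaps included, had log2 ratios of -0.20 and -0.33, against -0.69 and -0.70 for the covered lengths.

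Among the domains that were longer in HD, chr2:131729324-131740062 stood first. HD covered 10739 bp and WT 5312 bp, a log2 ratio of 1.02. The difference lay on the left, where HD started 5357 bp earlier, while the right ends lay 70 bp apart. The HD transgene is driven by the mouse prion protein promoter. Whether reads from the transgene add to this or any other longer domain was not tested. The second was chr4:104829217-104837028 where WT covered 4310 bp and HD 7329 bp (0.77) and the HD peak ran 3502 bp further on the right. The next 6 had ratios of 0.39 to 0.47. They were chr1:92099868-92105772 (4266 and 5905 bp), chr6:88145858-88151712 (4238 and 5855 bp), chr1:137624644-137631243 (4691 and 6449 bp), chr4:125927808-125935336 (5429 and 7431 bp), chr11:74978227-74984886 (4918 and 6576 bp) and chr11:118914099-118920544 (4837 and 6352 bp). WT covered under 5000 bp in 6 of these 8 domains, so HD alone brought them over the limit. An HD peak with no WT peak over it lay within 5 kb of the domains chr1:137624644-137631243 and chr6:88145858-88151712. With all peaks within 5 kb of the domain counted, their log2 ratios were 0.73 and 0.77. The same count lowered the ratio at chr4:125927808-125935336 from 0.45 to 0.25 and at chr11:74978227-74984886 from 0.42 to 0.28, and left the other 4 as they were.

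**Figure D4:**
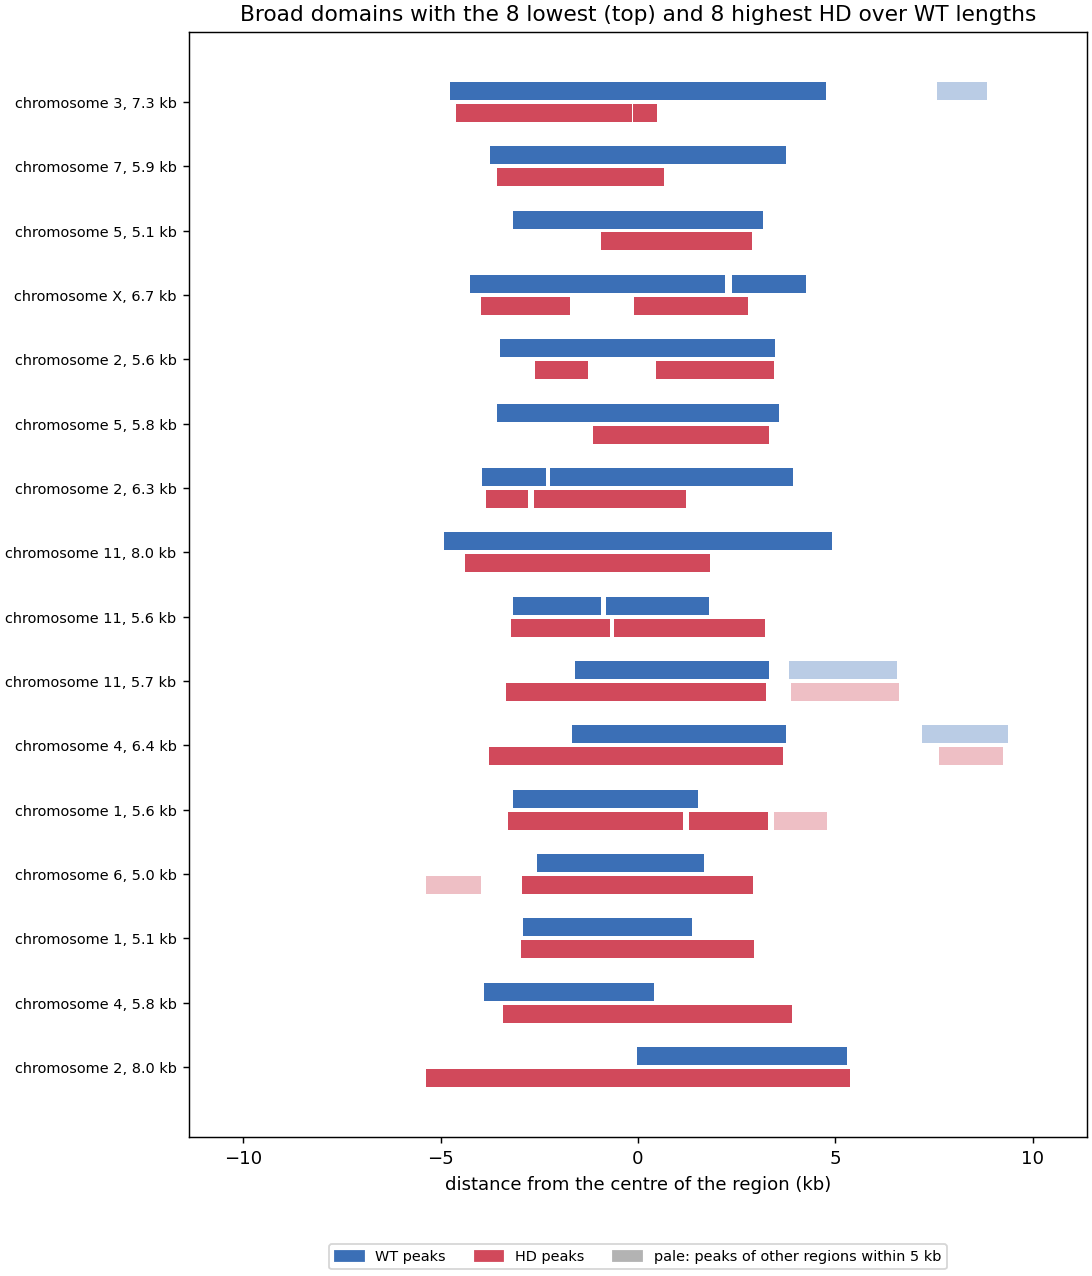
Peaks of the broad domains with the 8 lowest (top) and 8 highest (bottom) ratios of HD over WT covered length, by distance from the centre of each region in kb; WT peaks are blue, HD peaks red, and peaks of neighbouring regions within 5 kb pale. In most of the 16 domains 1 edge nearly coincides and the other lies over 1 kb away.

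Inward shifts of over 500 bp at the outer edges were mostly one-sided, and smaller shifts often lay at both. The HD edge lay inward of the WT edge by a median of 94 bp (80 to 115 bp) over both edges of all domains, or 100 bp for left edges and 89.5 bp for right edges. Both HD edges lay inside the WT edges in 298 domains, 44.1%, and both outside in 79, 11.7%. Over all regions with both libraries these shares were 42.4% and 13.0%. Exactly 1 HD edge lay over 500 bp inward in 165 domains, 24.4%, and both did in 2, 0.296%, against 7.08% and 0.121% of all regions with both libraries. These 2 domains were chr4:71856604-71864599, with shifts of 1646 and 886 bp, and chr11:56824030-56833878, with 532 and 3094 bp; the first was chosen after its values were seen. The 165 domains were picked for a single edge over 500 bp inward, which caps the inward shift of their other edge at 500 bp. For that other edge the median shift was 86 bp (quartiles -80 and 199 bp), close to the 94 bp of all edges. Because of the cap, this value does not bear on whether the shifts were one-sided. The left and right shifts of a domain were not correlated, with Pearson's r = -0.01 and Spearman's rho = 0.00 across the 676 domains, which share the 2 libraries. These coefficients cover all shifts and do not describe how those over 500 bp paired. Such shifts lay at 92 left and 77 right edges of the 676 domains. Shifts this rare would seldom fall on both edges of a domain even if the edges were unrelated. That they were mostly one-sided is thus a count and not a pattern of pairing. At least 1 HD edge lay over 1 kb inward in 68 domains, 10.1%, and over 1 kb outward in 23, 3.40%, against 1.91% and 0.599% of all regions. A fixed distance is a smaller part of a wide region, so these shares describe distances and not proportions. The 165 domains, picked by this same shift, covered 194.7 kb less in HD, and the other 511 covered a net 39.9 kb less, with a median log2 ratio of -0.036.

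HD peaks broke up the domains more often than WT peaks did. Both libraries had 1 peak in 486 domains, 71.9%, against 98.2% of the narrower regions. More HD than WT peaks lay in 144 domains, 21.3% (18.3 to 24.6%), and fewer in 22, 3.25% (2.05 to 4.89%). Over all regions with both libraries these shares were 2.13% and 0.466%. A WT peak faced several HD peaks in 143 domains, an HD peak faced several WT peaks in 21, and 26 were divided in both. The share divided in HD was 19.9% at 5 to 6 kb, 27.3% at 6 to 8 kb, 42.6% at 8 to 10 kb and 54.5% in domains of 10 kb or more. In WT these shares were 4.91%, 8.18%, 10.6% and 22.7%. A wider domain has more length in which a break can fall, so these are shares of domains and not rates per kb. A single WT peak of at least 5000 bp lay in 620 domains, and such an HD peak in 471. The whole covered length, divided or not, reached 5000 bp in 646 domains in WT and in 576 in HD. The share divided depended on the peak list. With peaks of a library within 1 kb merged, HD had more peaks in 5.36% of domains and in 0.428% of all regions with both libraries. When both lists were limited to scores of at least 100, these shares were 13.9% and 1.14%.

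**Figure D5:**
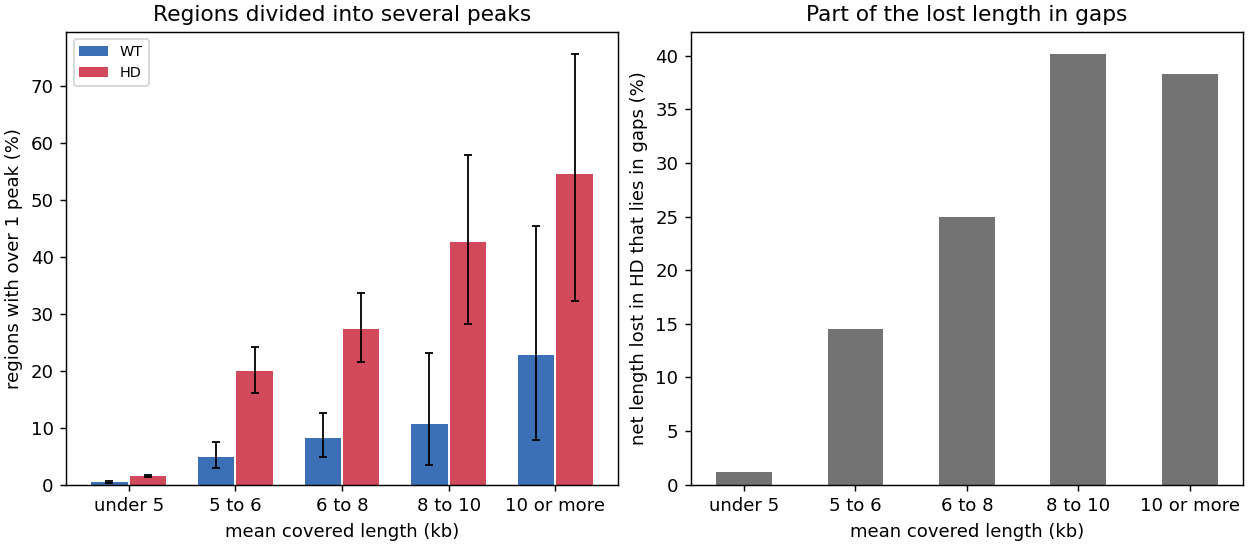
Left, share of regions with more than 1 peak (%) by mean covered length (kb) in WT (blue) and HD (red), with 95% exact binomial intervals over regions; right, share of the net difference in covered length that lies in gaps (%), by the same classes. In HD 54.5% of the domains of 10 kb or more were divided, against 1.47% of regions under 5 kb, counted per region and not per kb.

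The breaks were short. The 189 gaps between HD peaks had a median length of 170 bp (quartiles 74 and 354 bp), and the 49 gaps between WT peaks had one of 81 bp (46 and 154 bp). Of the HD gaps 82.5% were under 500 bp, and 12 were 1 kb or longer. The largest piece had a median share of 73.7% of the covered length in the 169 domains divided in HD and of 70.1% in the 47 divided in WT. Of 2 pieces the larger holds most of the length by definition, so these shares do not show a dominant piece. The smallest piece was a median of 1447 bp wide in HD, and in 72 of the 169 domains it scored under 100, near the lowest score of the list. Such pieces were not particular to HD. In WT the smallest piece scored 73.99 at chr15:85499110-85516810 and 89.67 at chr5:143571777-143585791. The centre of the gap lay closer to an end of the HD domain than to its middle for 80 of 189 HD gaps, 42.3% (35.2 to 49.7%). The parts closer to an end are together as long as the part closer to the middle, so this share shows no preference for the ends. Besides the 2 domains with 4 HD peaks, 16 had 3, and 4 of these tied domains are named, taken in order of chromosome and start: chr1:25880370-25889315, chr2:165699121-165706196, chr3:55265023-55271210 and chr4:97437719-97448173. In the last of these WT also had 3 peaks, covering 10274 bp against 9808 bp in HD. At chr2:165699121-165706196, the WT peak was 7052 bp wide, and 3 HD peaks with gaps of 893 and 107 bp covered 5554 bp.

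Gaps made up 51.1 kb of the 234.6 kb net difference in the domains, 21.8%, and outer edges 183.5 kb, 78.2%. In narrower regions gaps made up 1.22%. By width class the part in gaps was 14.5% at 5 to 6 kb, 25.0% at 6 to 8 kb, 40.2% at 8 to 10 kb and 38.3% in domains of 10 kb or more. It was 12.6% when both lists were limited to scores of at least 100, 14.4% with the width taken from WT alone and 41.2% with the width taken from HD alone. A gap is taken out of the covered length by definition, so the domains picked for more HD pieces and the undivided ones are only set side by side. In these 144 domains the median log2 ratio of covered lengths was -0.100 (-0.117 to -0.076), and that of the outer spans was -0.044 (-0.060 to -0.032). In the 486 domains with 1 peak of each library both were -0.057 (-0.074 to -0.046).

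Most domains were also strongly called. The highest score of a domain, on the scale of its own list, had a median of 2433 in WT and 3100 in HD, against 883 and 1347 in narrower regions. A score of 3100, which many peaks share, or more was reached in 209 domains in WT, 30.9%, and in 380 in HD, 56.2%. The scores thus rank the domains poorly. Of the narrower regions, 2.1% had such a score for WT and 12.5% for HD. The larger HD share was therefore not particular to the domains. Under 500 were 10 domains in WT and 5 in HD, and 2 in both. Near that limit, 38.1% of all single WT peaks scored below 478.96, the highest WT score of chr11:118914099-118920544. In HD 34.5% of all single peaks scored below 431.3, the highest HD score of chrX:63901393-63909905. These are shares of peaks, while the counts of domains use the highest score of each domain. The lowest WT score was that of chrX:166412602-166418786, with scores of 141.9 in WT and 230.56 in HD; WT covered 6056 bp of it and HD 4146 bp. The lowest HD score was 185.39, at chr6:55626620-55632757, where the WT score was 605.35. The log2 ratio spread more among the 10 with a WT score under 500, with an SD of 0.31 against 0.14 among the 209 domains at 3100 or more. The median ratio was -0.067 in those 209 domains. The weakest domains were chosen after their values were seen.

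Broad domains lay on every chromosome but Y, which had only 4 regions with both libraries, and few lay on X. Chromosome 11 had the most, 61, followed by chromosome 7 with 47 and chromosomes 1 and 2 with 44 each. As a share of the regions with both libraries they made up 3.14% on chromosome 12 to 5.61% on chromosome 19, and 3.99% (3.70 to 4.30%) of all on autosomes. On X they made up 0.911% (0.30 to 2.11%), 5 of 549. WT and HD covered 5610 and 5156 bp at chrX:11653478-11659087, 5792 and 6227 bp at chrX:45693454-45699694, and 9946 and 7524 bp at chrX:130217194-130227139, besides the X domains given above. The median log2 ratio of the 5 was -0.40, against -0.068 over all 676 domains. The value over all X regions with both libraries is not given. Among the 5 is the domain with the lowest WT score, and the ratio spread more among domains with low WT scores. The mice were males with a single X, and whether this bears on the share of domains there was not tested. These domains were chosen after their values were seen. The median ratio by autosome ran from -0.12 on chromosome 16 to -0.03 on chromosomes 10 and 15.

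Most domains lay far from the next one, and some lay close together. The next domain on the chromosome lay a median of 2058 kb away (quartiles 605 and 5090 kb), and 44 of 656 such distances were over 10 Mb. Under 100 kb lay 42, which joined 80 domains into 38 runs: 35 pairs, 2 runs of 3 and 1 of 4. The spacing of all regions with both libraries is not set beside these values. They therefore do not show that domains group more than marked regions at large. The run of 4 spanned 163 kb from chr19:5687351 to 5850414 and covered 31710 bp in WT and 30955 bp in HD. Runs of 3 lay at chr11:68871632-68940389, with 18475 and 19351 bp, and at chr3:87945130-88022839, with 17326 and 17269 bp. The largest difference of any run was that of the pair at chr16:20692733-20719354, where WT covered 13268 bp and HD 10130 bp (log2 ratio -0.39). These runs were chosen after their values were seen. The 3 closest pairs were 36 to 73 bp apart, taking the outer bounds of both libraries; between the peaks of a single library the distance could be longer. At chr16:23979959-23986062 and chr16:23986099-23991256, 36 bp lay between the domains (56 bp between WT and 115 bp between HD peaks), which covered 6104 and 5138 bp in WT and 5589 and 5074 bp in HD. At chr3:88009931-88016795 and chr3:88016864-88022839 it was 68 bp (530 bp between WT and 68 bp between HD peaks), where the domains covered 6379 and 5767 bp in WT and 6865 and 5058 bp in HD. The third pair was the domain at chr12:50474576-50489818 and its neighbour chr12:50489892-50496856, 73 bp away (73 bp between WT and 435 bp between HD peaks), which covered 6965 bp (WT) and 5537 bp (HD).

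Around a domain other marked regions were frequent at short range. Another region lay within 2 kb of 110 domains, 16.3% (13.6 to 19.3%), against 8.11% (7.70 to 8.54%) of narrower regions. Within 20 kb the shares were 50.1% and 46.5%. The nearest region within 2 kb was a narrower region with both libraries in 66 cases, another broad domain in 10, an HD-only peak in 21 and a WT-only peak in 13, at a median of 558 bp. The 66 narrower neighbours had a median covered length of 1971 bp (WT) and 1672 bp (HD). No test was made of these differences.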

How the data were processed

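H3K4me3 peaks of 1 WT and 1 HD library were analysed; an input library belongs to the series and was not used here. The deposited peak lists give positions and a score per peak. The peak names carry the name MACS; the sources used here give no version, setting or control for it. Tools named in the submitters' processing notes are SAMtools, BWA 0.5.9 and CASAVA 1.8.2, with the genome builds mm9 and NCBIM37, names of 1 assembly. The score that the authors deposited carries no unit in the files and was read only within its own list. Positions are counted from 1.

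Regions, covered lengths, gaps and outer edges were computed with scipy 1.17.1, pandas 2.3.3 and numpy 2.4.6 (Python 3.11.15) and checked on simulated lists. Left and right follow the genome coordinate. Shares have exact (Clopper-Pearson) intervals and medians order-statistic intervals. A domain was called shorter or longer past 1.5-fold.

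Named are the 12 widest domains, the 8 lowest and 8 highest ratios, the 6 with most HD peaks (ties by chromosome and start), 3 on each side of the minimum and the 3 closest pairs. Members and lists were chosen with earlier results of these data known, and the width classes, edge and flank distances and score limits were set after the distributions were seen. Gene starts, gene lists, cell type markers and sequence composition were not analysed here, since the gene tables cover GRCm38.p6.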

Additional observations from a re-analysis of the deposited data

How the results depend on the processing

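The sign of the median log2 ratio held under every alternative run. With a minimum of 4000 bp there were 1610 domains, 32 over 1.5-fold shorter and 7 longer in HD, and 13.5% had more HD peaks. With 6000 bp these values were 289, 4, 1 and 25.3%. With the width from WT alone the median ratio was -0.094, 30 domains were shorter and 1 longer, 80.8% were covered less in HD and edges lay 136 bp inward. With the width from HD alone these values were -0.039, 3, 7, 64.0% and 61.5 bp, so the order of shorter and longer counts turned. When both lists were limited to scores of at least 100, 4 domains were longer and 13.9% had more HD peaks. With peaks within 1 kb merged the median was -0.055, 26 were shorter and 12 longer, 5.36% had more HD peaks and 69.8% were covered less. Against all regions with both libraries, the shares over 1.5-fold shorter and longer were lower in the domains as reported, but higher for shorter with WT width (3.86% against 2.79%) and for longer with HD width (1.13% against 0.749%). Both were higher with scores of at least 100 (2.63% against 2.48%, 0.619% against 0.524%) and with merging (3.095% against 2.995%, 1.43% against 1.08%). The cause of these moves was not tested, beyond the numbers of domains that a changed minimum sets. Of 70 recomputed values 45 stayed close to those reported. Mean outer span, equal numbers of top scoring peaks, an overlap of 500 bp and autosomes only moved none. The share of domains with a gene start was not run. No paired analysis was possible because there was a single library of either genotype.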

Other observations

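Peaks of a single library lay near some domains. A WT-only peak lay within 5 kb of 26 domains, 3.85% (2.53 to 5.58%), and an HD-only peak within 5 kb of 31, 4.59% (3.14 to 6.45%). For narrower regions these shares were 1.24% and 2.08%. Counted from the other side, 28 of 1019 WT-only regions and 33 of 1825 HD-only regions lay within 5 kb of a domain.

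A marked stretch beside a domain can differ more than the domain does. The domain chr4:97437719-97448173, chosen after its values were seen, covered 10274 bp in WT and 9808 bp in HD. With the peaks within 5 kb of it the lengths were 14540 and 10697 bp, and the log2 ratio went from -0.07 to -0.44. The added peaks were weakly called. The WT peak of 4266 bp scored 210.91, and the HD peak of 889 bp scored 53.1, near the lowest of its list.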
